A study of Mus musculus with 4 samples.

Results

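The 10 genes described here encode ligands and receptors of axon guidance: the ligands Slit2, Slit3, Ntn1 and Sema3a and the receptors Robo1, Robo2, Dcc, Unc5c, Nrp1 and Plxna4. They were chosen by name, for their role and with earlier results of these data known, from the 25209 genes counted in each library. All 10 were seen in at least 10 cells. They were read in day 6 embryoid bodies (EBs), the aggregates that mouse embryonic stem cells (ESCs) form as they differentiate without directing signals. The 4 libraries were 2 of LSD1KO EBs and 2 of WT EBs, named replicates 1 and 2 of each genotype below. The LSD1KO cells lack the promoter and first exon of Kdm1a, the gene of the histone demethylase LSD1, which paired CRISPR guides removed. The WT cells are the V6.5 ESCs in which this was done, and both genotypes were cultured and aggregated in the same way. LSD1KO ESCs were picked as clones. The study's RNA-seq methods say that replicates came from 2 independent clones, while its scRNA-seq methods speak of 2 biological replicates and do not mention clones, so it is not certain that the statement covers these libraries. The p-values measure the spread between these libraries.

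Slit proteins are secreted ligands that repel growing axons and migrating cells through Robo receptors. Netrin-1, the product of Ntn1, attracts axons through Dcc and repels them through Unc5 receptors, while Sema3a repels through a complex in which Nrp1 binds the ligand and a plexin such as Plxna4 carries the signal into the cell. None of these genes is restricted to neurons. Slit and Robo genes act in the forming heart and mesoderm, Nrp1 also binds VEGF and is needed in vessels, and the floor plate and notochord of the embryo secrete Slits and netrin together with Shh.

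Each library held 72285943 to 75406512 unique molecular identifiers (UMIs, tags that mark single captured RNA molecules). A barcode counted as a cell from 500 UMIs and 500 genes on, which left 5693 and 3045 cells in LSD1KO replicates 1 and 2 and 4393 and 6828 cells in WT replicates 1 and 2. Any 2 libraries shared 3 to 15 barcodes among these cells. Kdm1a, the targeted gene, was at 1.10 and 0.81 CPM (counts per 1000000 UMIs) in LSD1KO libraries, against 221 and 246 CPM in WT libraries. Its counted 3′ tags come from beyond the deleted stretch, so this level does not check the deletion directly. Cells with at least 2000 UMIs were sorted into 9 gates, each from a list of 10 marker genes that holds none of the guidance genes. A cell entered a gate when it had a UMI of at least 3 markers of that list and of at least 2 more markers than of any other list. Cells in which 2 lists came too close are called mixed, cells with fewer markers ungated, and cells under 2000 UMIs shallow. The genotypes filled different gates: the heart and lateral mesoderm gate held 0 and 0 cells in LSD1KO libraries, against 757 and 939 cells in WT libraries. A count of 0 allows a share of up to 0.0615% and 0.122% of the cells with at least 2000 UMIs in the LSD1KO libraries, in counting error only. The pluripotent gate held 1048 and 831 LSD1KO cells, against 43 and 266 WT cells, and the neuron gate 597 and 264 LSD1KO cells, against 22 and 36 WT cells. The endoderm gate held 0 and 1 LSD1KO cells, against 385 and 430 WT cells. Mixed cells made up 40.0% and 35.7% of the LSD1KO libraries, against 21.4% and 22.9% of the WT libraries. The 10 leading genes of the gates held 2 to 6 markers of their own list and 0 of any other, which the gate rule itself favours and which is no check of the gates. The neuron gate was also led by the contractile genes Tagln, Cnn1 and Actc1, beside Nefm, Nefl and Tubb3. The neuron gate is therefore called by its rule and not read as a neuron population.

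To show the start regions of genes that moved together in whole EBs, beside that of a close relative that was not called, RefSeq promoters on GRCm38.p6 are printed for Slit2, Robo1, Unc5c and Nrp1, which fell, and for Slit3. The counts themselves were made on the older assembly mm9, and no coordinates were carried from one to the other. Each runs 5′ to 3′ from 250 bases before to 50 bases after the annotated start. Capitals mark E-boxes (CANNTG), the sites of basic helix-loop-helix factors such as the Hand proteins of the heart, or GATA sites (AGATAA or TGATAA), each searched on both strands.
Slit2 promoter, chr5:47982905-47983204 (plus strand): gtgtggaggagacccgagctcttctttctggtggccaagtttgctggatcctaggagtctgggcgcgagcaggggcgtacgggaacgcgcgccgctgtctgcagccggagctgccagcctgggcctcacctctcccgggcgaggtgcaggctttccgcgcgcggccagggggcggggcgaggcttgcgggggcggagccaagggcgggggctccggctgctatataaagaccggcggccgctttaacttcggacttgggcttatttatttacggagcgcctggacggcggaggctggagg
Slit3 promoter, chr11:35121206-35121505 (plus strand): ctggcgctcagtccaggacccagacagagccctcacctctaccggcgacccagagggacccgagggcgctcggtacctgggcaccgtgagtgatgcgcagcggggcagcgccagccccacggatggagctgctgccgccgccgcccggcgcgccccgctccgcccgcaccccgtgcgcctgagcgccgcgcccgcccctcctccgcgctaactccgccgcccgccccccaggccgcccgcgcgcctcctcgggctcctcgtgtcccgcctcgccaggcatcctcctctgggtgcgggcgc
Robo1 promoter, chr16:72662899-72663198 (plus strand): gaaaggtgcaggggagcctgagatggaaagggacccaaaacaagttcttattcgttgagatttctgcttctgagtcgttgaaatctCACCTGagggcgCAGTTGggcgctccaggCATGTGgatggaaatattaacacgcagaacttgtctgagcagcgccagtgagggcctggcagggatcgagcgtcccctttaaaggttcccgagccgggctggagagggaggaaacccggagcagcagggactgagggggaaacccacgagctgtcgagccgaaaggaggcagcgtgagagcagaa
Unc5c promoter, chr3:141465314-141465613 (plus strand): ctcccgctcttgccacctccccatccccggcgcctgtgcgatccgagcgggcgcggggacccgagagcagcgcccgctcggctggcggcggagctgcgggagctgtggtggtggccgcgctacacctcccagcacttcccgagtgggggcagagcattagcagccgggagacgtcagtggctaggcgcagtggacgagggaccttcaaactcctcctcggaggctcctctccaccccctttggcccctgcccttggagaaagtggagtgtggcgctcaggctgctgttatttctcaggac
Nrp1 promoter, chr8:128358823-128359122 (plus strand): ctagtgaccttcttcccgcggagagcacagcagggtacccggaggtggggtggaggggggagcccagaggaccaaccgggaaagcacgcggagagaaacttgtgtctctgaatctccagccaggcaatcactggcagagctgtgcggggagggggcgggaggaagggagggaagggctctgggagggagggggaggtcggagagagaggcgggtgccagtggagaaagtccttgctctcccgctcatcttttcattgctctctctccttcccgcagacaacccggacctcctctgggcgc
The Robo1 window held 3 E-boxes and the other 4 windows held 0, while 72.3% of all 32851 promoters of this length held at least 1. None of the 5 printed windows held a GATA site, which 18.6% of all promoters did. Robo2, which also fell, has 3 annotated starts in the table, which are not printed. Each of its windows held 1 E-box and 1 of them also held a GATA site. The printed windows were rich in CpG: Slit2 had 30, Slit3 41, Robo1 15, Unc5c 24 and Nrp1 14 CpG dinucleotides, against a median of 7 over all promoters. The called and the uncalled Slit gene thus both start in CpG-dense sequence of 68.0% and 78.3% G and C, against a median of 52.7%. Promoters were read for 7 of the 10 genes, which is not a count of the genes that have a RefSeq promoter. A match of letters is a description and no test of binding.

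In whole EBs, with UMIs summed over all kept cells of a library and CPM scaled with TMM factors, 6 of the 10 genes were lower in LSD1KO: Nrp1, Plxna4, Unc5c, Robo2, Slit2 and Robo1. Only Dcc was called higher, at a low level. Slit3, Ntn1 and Sema3a were not called in edgeR's quasi-likelihood test at an adjusted p of 0.05. Of all 16953 genes tested, 21.6% were called lower and 22.6% higher (44.2% in either direction), so a call alone is common in this comparison. With library totals in place of TMM factors the split over all genes was 4839 higher and 2583 lower, beside 3839 and 3661, and the median of all genes lay at 0.13. The falls named here kept their calls under that scaling. The median log2 fold change of the 10 genes was −1.91, against −0.00088 over all genes tested. These are sums over whole EBs, in which fewer cells of a type and less RNA per cell cannot be told apart. The smallest p of an exact two-sided permutation test over 2 and 2 libraries is 0.333, so the p-values rest on the spread that edgeR pools over genes.

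**Figure D1:**
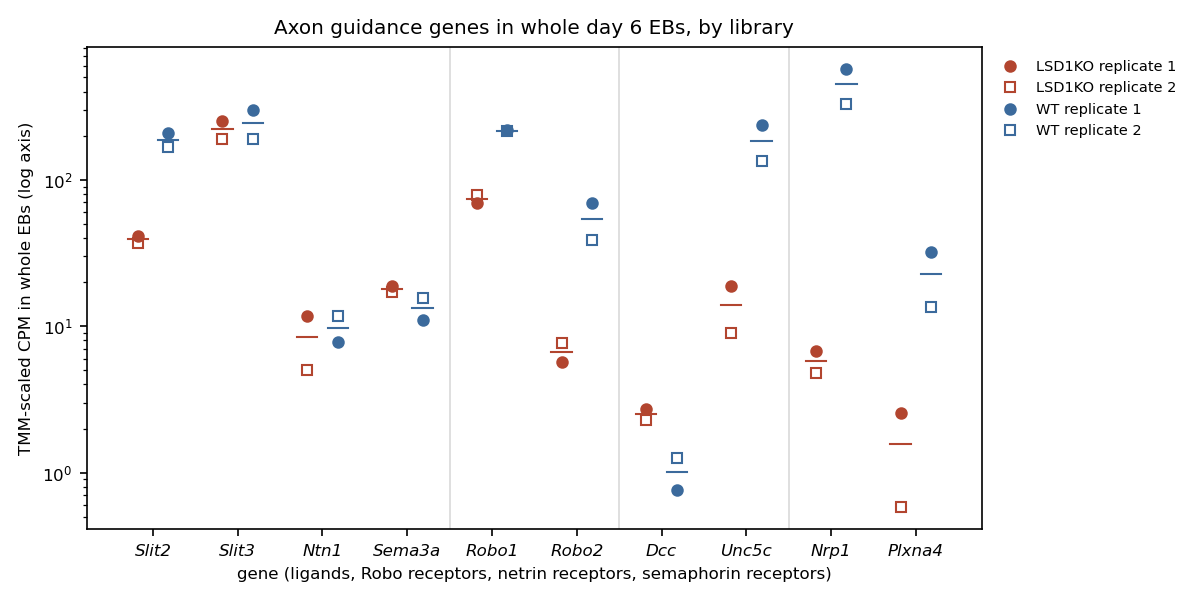
Level of each gene in whole EBs (CPM scaled with TMM factors, log axis), with 1 point for each library and a line at the mean of a genotype. LSD1KO points lie left of WT points. Both LSD1KO libraries lie under both WT libraries for Slit2, Robo1, Robo2, Unc5c, Nrp1 and Plxna4, and above them for Dcc and Sema3a. The share of all genes that separate in this way was not computed, so the separation alone is not read as a result.

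Among the ligands, Slit2 was at 41.6 and 36.8 CPM in LSD1KO libraries, against 209.6 and 167 CPM in WT libraries. Both LSD1KO libraries lay far below both WT libraries. The log2 fold change of Slit2 was −2.26 (standard error 0.14), with an adjusted p of 0.00064 in edgeR's quasi-likelihood test, a level 4.80-fold lower. Slit3, its closest relative in the list, was at 252 and 189 CPM in LSD1KO libraries, against 299.8 and 190.2 CPM in WT libraries. The genotypes overlapped, and its log2 fold change of −0.15 (standard error 0.25) had an edgeR adjusted p of 0.64. Replicates of 1 genotype differed more than the genotypes did, and without LSD1KO replicate 2 or WT replicate 1 the sign turned (0.04 and 0.22). Ntn1 was at 11.8 and 5.03 CPM in LSD1KO libraries, against 7.83 and 11.8 CPM in WT libraries, with the highest value in 1 library of each genotype. The log2 fold change of Ntn1 was −0.22 (standard error 0.42, edgeR adjusted p = 0.70). It reached −0.96 (edgeR adjusted p = 0.0441) without LSD1KO replicate 1, and it turned to 0.27 without LSD1KO replicate 2 and to 0.11 without WT replicate 2. Sema3a was at 18.7 and 17.03 CPM in LSD1KO libraries, against 11.1 and 15.5 CPM in WT libraries. Its genotypes did not overlap, but the log2 fold change of 0.42 (standard error 0.18) missed the threshold with an edgeR adjusted p of 0.11. Scaling to plain library totals gave 0.56 (edgeR adjusted p = 0.0475) and leaving out WT replicate 2 gave 0.69 (edgeR adjusted p = 0.0271).

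Both Slit receptors fell. Robo1 was at 69.3 and 78.8 CPM in LSD1KO libraries, against 220.5 and 214 CPM in WT libraries. The replicates lay close together in both genotypes, and the log2 fold change was −1.55 (standard error 0.10, edgeR adjusted p = 0.00065). Robo2, read in fewer cells, was at 5.66 and 7.64 CPM in LSD1KO libraries, against 69.2 and 38.7 CPM in WT libraries. The WT replicates differed by nearly as much as LSD1KO and the lower WT library did, yet both lay above both LSD1KO libraries. The fold was larger than that of Robo1, at −3.02 on the log2 scale (standard error 0.32, edgeR adjusted p = 0.0019).

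The netrin receptors were called in opposite directions. Unc5c, which mediates repulsion, was at 18.8 and 8.96 CPM in LSD1KO libraries, against 236 and 135 CPM in WT libraries. Replicate 1 was the higher library in both genotypes, and the gap between genotypes was larger than either gap within them. The log2 fold change was −3.74 (standard error 0.44, edgeR adjusted p = 0.0027). Dcc, the receptor for attraction, was near the limit of what these libraries can read, at 2.73 and 2.28 CPM in LSD1KO libraries, against 0.755 and 1.26 CPM in WT libraries. The log2 fold change of Dcc was 1.31 (standard error 0.32, edgeR adjusted p = 0.0216), and the call was lost without LSD1KO replicate 1 (edgeR adjusted p = 0.0623) and without WT replicate 1 (0.069). Leaving out the 5% of cells with the highest doublet scores gave an edgeR adjusted p of 0.0527. The UMIs behind it were few and unevenly spread. In LSD1KO libraries, 193 and 149 UMIs of Dcc lay in 126 and 84 cells, with at most 8 and 9 in 1 cell. In WT libraries, 47 and 80 UMIs lay in 21 and 32 cells, and a single cell held 23 of them in replicate 1 and 31 of them in replicate 2. Cells with a UMI of Dcc made up 2.21% and 2.76% of LSD1KO libraries, against 0.478% and 0.469% of WT libraries. With every cell thinned to 3000 UMIs, these shares were 0.642% and 0.731% in LSD1KO libraries, against 0.236% and 0.177% in WT libraries. Median depth before thinning was 11402 and 20304 UMIs per cell in LSD1KO libraries, against 11698 and 9211 in WT libraries. In barcodes with under 100 UMIs, which hold free RNA, Dcc was at 3.41 and 2.45 CPM in LSD1KO libraries, against 0.413 and 0.985 CPM in WT libraries, from 8 UMIs or fewer in each. On the same plain scale the cells were at 2.88 and 2.36 CPM in LSD1KO libraries, against 0.742 and 1.17 CPM in WT libraries. Dcc in LSD1KO cells was not above its level in free RNA. In LSD1KO replicate 1 the same held for Ntn1, Robo2, Nrp1 and Plxna4, while in LSD1KO replicate 2 it did not. The part of free RNA in the Dcc shares was not tested, and these shares are not read as expression.

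Both semaphorin receptors fell, and Nrp1 had the largest fall of the 10 genes, also with each library left out in turn. Nrp1 was at 6.79 and 4.77 CPM in LSD1KO libraries, against 572 and 329.5 CPM in WT libraries. No LSD1KO library came near the WT range, and the log2 fold change was −6.28 (standard error 0.37, edgeR adjusted p = 0.00057), a level 77.9-fold lower. Plxna4, its signalling partner, was at 2.55 and 0.581 CPM in LSD1KO libraries, against 32.0 and 13.5 CPM in WT libraries. The replicates were wide apart in both genotypes, with replicate 1 higher each time. The log2 fold change was −3.85 (standard error 0.74, edgeR adjusted p = 0.0107), and it ran between −5.29 and −3.09 when each library was left out in turn. The calls of Nrp1, Plxna4, Unc5c, Robo2, Slit2 and Robo1 were kept in each of these runs and in every other setting tried.

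The levels in the gates show where in the EB these genes were read. Gate levels are CPM on plain UMI totals, given for a library with at least 30 cells in a gate, and they are descriptions with no test. In WT EBs the heart and lateral mesoderm gate had the highest level of Nrp1, Unc5c, Plxna4, Robo2, Slit3 and Slit2 among the 6 gates filled in both WT libraries. Nrp1 averaged 1053 ± 251 CPM there (SD, n = 2 libraries), 622 ± 126 CPM in the endoderm gate, 276 ± 62.4 CPM in the endothelium gate and 104 ± 14.0 CPM in the epithelium gate. No 2 neighbours in this order overlapped, and only the last gates, paraxial mesoderm and pluripotent, did. Endothelium, where Nrp1 is the classical VEGF co-receptor, thus came after the heart and endoderm gates. Unc5c was more sharply placed: it averaged 718 ± 105 CPM in the heart gate and 78.5 ± 30.8 CPM in the endothelium gate, and 16.5 CPM or less in each of the other 4 gates. It was also 1 of the 10 leading genes of the heart gate beside Hand1, Tnnt2 and Hand2, although it is no marker of any list.

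**Figure D2:**
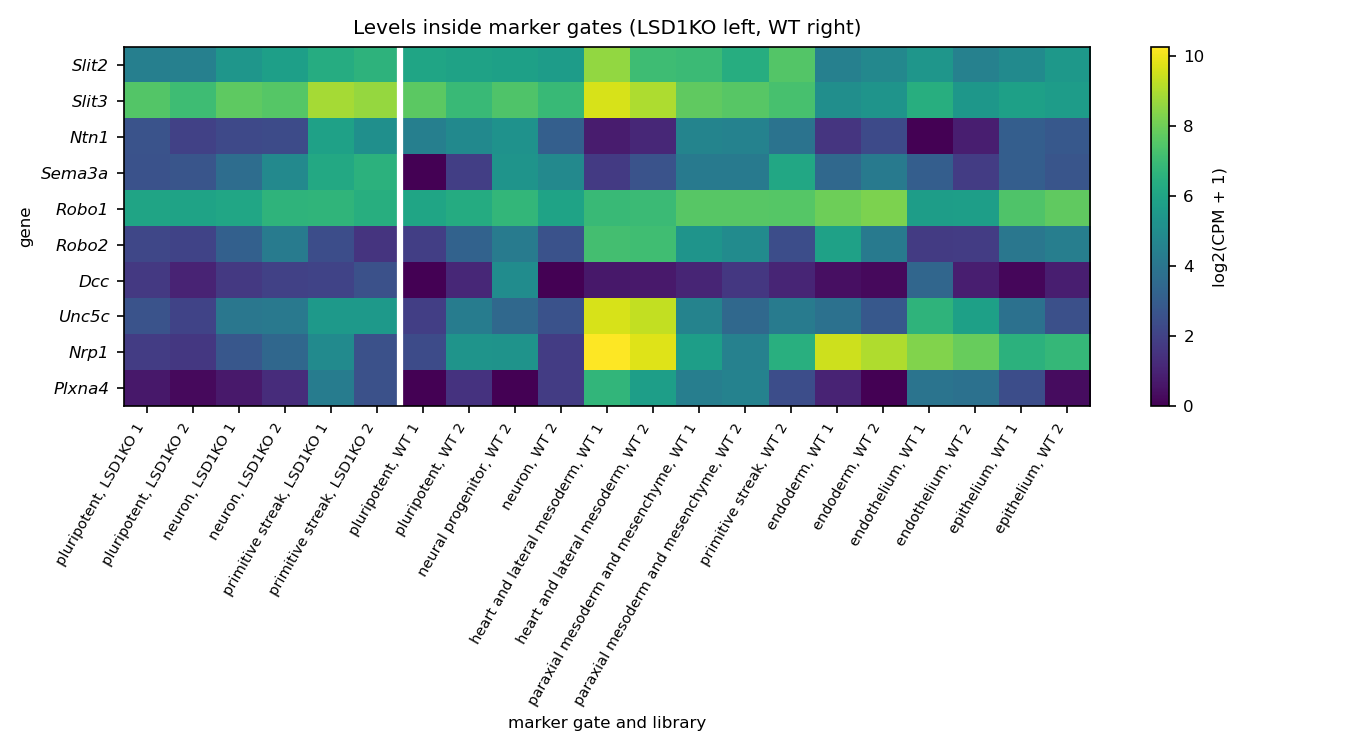
Levels of the genes (rows) inside marker gates (columns), as log2(CPM + 1) per library, with LSD1KO gates left of the white line and WT gates right of it. Only gates with at least 30 cells in a library are drawn. The heart and lateral mesoderm columns of WT are the brightest for Nrp1, Unc5c, Slit3, Plxna4 and Robo2, and no LSD1KO library fills that gate.

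Plxna4 was at 108 and 52.6 CPM in the heart gate of WT replicates 1 and 2. The next gate, paraxial mesoderm and mesenchyme, was at 20.2 and 22.8 CPM. Robo2 averaged 142 ± 7.95 CPM in the heart gate, against 37.3 ± 28.0 CPM in the endoderm gate and 34.8 ± 6.3 CPM in the paraxial gate, which overlapped each other. The 2 Slit genes shared their leading gate among the gates filled in both WT libraries, but differed in steadiness. Slit3 was at 808 and 515 CPM there, while Slit2 was at 388 and 135 CPM, so that the WT replicates were far apart on Slit2, and the paraxial gate of WT replicate 2 followed at 82.8 CPM. The ungated cells were above the heart gate on Slit2 in both WT replicates. In WT replicate 2 the primitive streak gate, not filled in WT replicate 1, was also above the heart gate on Slit2. Robo1 broke with the pattern. It was highest in the endoderm gate (278 ± 33.5 CPM), then in the epithelium and paraxial gates (196 ± 31.5 and 194 ± 0.31 CPM, overlapping), and it was at 125 ± 1.8 CPM in the heart gate. Ntn1 was nearly absent from the heart gate, at 0.739 and 1.18 CPM, and was highest in the pluripotent gate (24.4 ± 5.7 CPM) and the paraxial gate (23.1 ± 1.3 CPM), which overlapped. Sema3a led in the paraxial gate at 17.5 ± 0.66 CPM, with the endoderm gate (14.0 ± 5.6 CPM) overlapping it. The neural progenitor gate was filled only in WT replicate 2, with 94 cells, where Ntn1 was at 36.6, Sema3a at 39.1 and Dcc at 30.7 CPM. Dcc there rested on 37 UMIs in 5 cells, 31 of them in 1 cell, and the 23 UMIs of Dcc in the endothelium gate of WT replicate 1 came from 1 cell.

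In LSD1KO EBs, 3 gates were filled in both libraries: pluripotent, neuron and primitive streak, the last with 467 cells in replicate 1 and 39 cells in replicate 2. The streak gate, led by Mixl1, Mesp1, Lhx1 and Eomes, had the highest level of 9 of the 10 genes, Robo2 being the exception. Slit3 averaged 434 ± 46.2 CPM in it, against 199 ± 16.4 CPM in the neuron gate and 159 ± 32.7 CPM in the pluripotent gate. Slit2 averaged 88.8 ± 12.05, 47.3 ± 9.4 and 21.1 ± 0.32 CPM in the same order of gates. Sema3a averaged 83.4 ± 16.9 CPM in the streak gate, against 5.27 ± 0.28 CPM in the pluripotent gate, and Ntn1 averaged 45.9 ± 16.7 CPM, against 4.03 ± 1.58 CPM. The 39 streak cells of LSD1KO replicate 2 give uneven values: 1 cell held 39 of their 98 Sema3a UMIs, and Dcc, Nrp1 and Plxna4 rested on 5 UMIs each. With cells thinned to 3000 UMIs, Sema3a was read in 16.6% and 5.26% of streak cells of LSD1KO replicates 1 and 2 and in 2.60% and 6.12% of neuron gate cells, so its order in replicate 2 is not firm. Nrp1 was at 28.9 CPM in the streak gate of LSD1KO replicate 1 and at 4.87 CPM, from 5 UMIs, in that of replicate 2, so its place there rests on 1 library. Robo1 in the streak gate (95.5 ± 14.0 CPM) overlapped the neuron gate (84.2 ± 24.8 CPM). Robo2 was highest in the neuron gate, at 7.78 and 18.4 CPM in LSD1KO replicates 1 and 2. The only streak gate that could be read in WT EBs was that of replicate 2, with 89 cells. There Nrp1 was at 89.2, Slit2 at 181, Sema3a at 69.6 and Ntn1 at 14.1 CPM.

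The share of a gene's UMIs that a gate holds adds how many cells carry the level. The heart gate held 65.7% and 69.7% of all Unc5c UMIs of WT replicates 1 and 2, 66.1% and 57.1% of those of Plxna4, 42.1% and 38.9% of those of Nrp1 and 41.7% and 51.6% of those of Robo2. It held 19.2% and 13.6% of all UMIs of these libraries, and 0 UMIs in LSD1KO libraries. All 4 fell in whole EBs, and the part of the empty gate in those falls was not tested. Slit3 also had 52.7% and 39.6% of its WT UMIs in the heart gate and was not called in whole EBs. Robo1 followed it least of the genes that fell: the heart gate held 11.0% and 8.6% of its WT UMIs, and the endoderm gate 16.5% and 11.6%. In LSD1KO EBs the streak gate held a large share of some genes in 1 library only. In LSD1KO replicate 1 it held 67.2% of Plxna4, 43.9% of Ntn1, 38.3% of Nrp1 and 34.4% of Sema3a UMIs, with 9.50% of all UMIs, while in LSD1KO replicate 2 it held 13.2%, 10.6%, 1.60% and 8.80% of them, with 1.63% of all UMIs. It held 22.1% and 8.02% of the Unc5c UMIs of LSD1KO replicates 1 and 2. The 38 Plxna4 UMIs of LSD1KO replicate 2 lay in 19 cells, and 5 of those cells held 24.

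**Figure D3:**
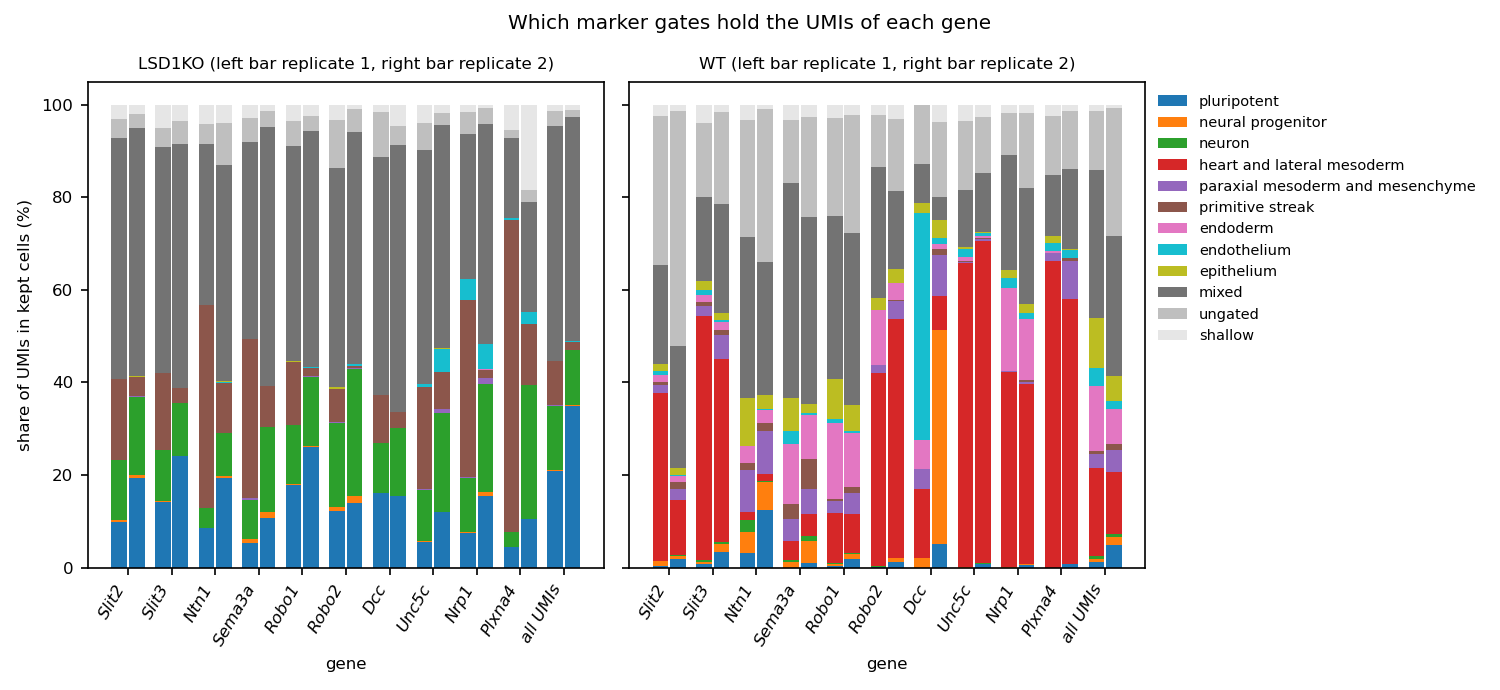
Share of each gene's UMIs (% of those in kept cells, vertical axis) held by each marker gate, with LSD1KO in the left panel and WT in the right panel and 1 bar for each library. The last pair of bars gives the share of all UMIs. The heart and lateral mesoderm gate fills most of the WT bars of Unc5c and Plxna4, and mixed cells fill about as much of most LSD1KO bars as of all UMIs.

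Only the pluripotent gate had at least 30 cells in every library, so it is the one gate in which the genotypes were tested against each other. Its cells were not alike in both genotypes. The median number of neuron markers was 3 and 3 in LSD1KO libraries, against 1 and 1 in WT libraries. In LSD1KO libraries 508 of 1048 and 314 of 831 cells had no more than the required lead. In WT libraries these were 17 of 43 and 65 of 266 cells, and the shares overlapped between the genotypes. The part of the unlike marker counts and of the narrow leads in the calls was not tested. CPM in this test is scaled with TMM factors as in whole EBs. Of the 13759 genes tested there, 10.4% were called lower and 11.6% higher in LSD1KO. The filter on low counts kept 9 of the 10 guidance genes, all but Plxna4, and 4 were called lower and 0 higher in edgeR's quasi-likelihood test. Slit2 was at 20.7 and 21.6 CPM in LSD1KO libraries, against 62.5 and 62.7 CPM in WT libraries. The replicates of each genotype nearly coincided, and the log2 fold change was −1.56 (standard error 0.14, edgeR adjusted p = 9.6e-05). The WT values of Slit2 rested on 48 and 199 UMIs in 14 and 88 cells. In WT replicate 1, 5 cells held 37 of the 48 UMIs, so the close match of the WT libraries is not read as precision. Ntn1, not called in whole EBs, was at 5.11 and 2.96 CPM in LSD1KO libraries, against 19.5 and 29.6 CPM in WT libraries. In this gate the log2 fold change of Ntn1 was −2.75 (standard error 0.32, edgeR adjusted p = 0.00040), and −2.28 (0.0662) without WT replicate 2. The 2 WT values rested on 15 and 94 UMIs in 7 and 61 cells. Whether the difference in Ntn1 itself differs between this gate and other cells was not tested, since no second gate was filled in all 4 libraries.

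The calls of Nrp1 and Unc5c in the pluripotent gate came from 1 library. Nrp1 was at 2.56 and 2.22 CPM in LSD1KO libraries, against 3.91 and 40.0 CPM in WT libraries, and only WT replicate 2 stood apart. Its log2 fold change of −3.59 (edgeR adjusted p = 0.0012) became −0.70 (0.66) without WT replicate 2 and −3.21 (0.105) in DESeq2. Unc5c was at 5.18 and 3.28 CPM in LSD1KO libraries, against 2.60 and 19.8 CPM in WT libraries, so that the genotypes overlapped. Its log2 fold change of −1.85 (edgeR adjusted p = 0.022) became 0.69 (0.71) without that library and −1.56 (0.13) in DESeq2. Leaving out the cells of highest doublet score kept 231 of the 266 cells in this gate of WT replicate 2 and left 12 of its 127 Nrp1 UMIs and 2 of its 63 Unc5c UMIs. With the highest doublet scores left out of all libraries, the log2 fold change was −1.11 (edgeR adjusted p = 0.125) for Nrp1 and 1.32 (0.31) for Unc5c, while Slit2 (−1.43) and Ntn1 (−2.85) kept their calls. Slit3, Robo1, Robo2, Dcc and Sema3a were not called in this gate. Robo2, at 3.48 and 3.23 CPM in LSD1KO libraries, against 2.60 and 8.82 CPM in WT libraries, passed only without WT replicate 1 (−1.39, edgeR adjusted p = 0.0295), and without WT replicate 2 its sign turned (0.38). Sema3a passed only with the highest doublet scores left out (edgeR adjusted p = 0.0080), where both WT libraries were at 0 UMIs, so no fold is given. Robo1, which fell in whole EBs, was at 62.1 and 61.8 CPM in LSD1KO libraries, against 61.2 and 81.9 CPM in WT libraries, with a log2 fold change of −0.28 (standard error 0.14, edgeR adjusted p = 0.18). Slit3 was at 181 and 137.5 CPM in LSD1KO libraries, against 197 and 129 CPM in WT libraries, and overlapped as it did in whole EBs.

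**Figure D4:**
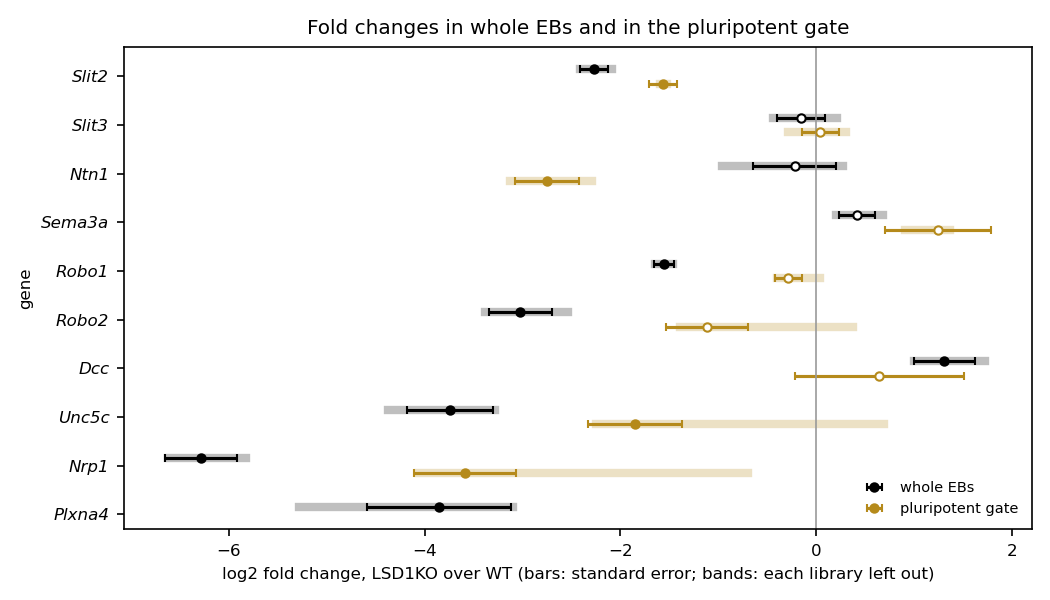
Log2 fold change (LSD1KO over WT) of each gene in whole EBs (black) and in the pluripotent gate (ochre), with bars for the standard error and bands for the range when each library is left out, without runs in which the lone library of a genotype had no UMI. Filled points passed an adjusted p of 0.05. Slit2 lies below 0 in both, Ntn1 passed the threshold only in the gate, and the bands of Nrp1 and Unc5c in the gate stretch towards or past 0.

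Much of the Slit2 of WT EBs lay outside the gates. Ungated cells held 32.1% and 50.7% of the Slit2 UMIs of WT replicates 1 and 2, at 520 and 285 CPM. Since Slits are secreted with Shh at the embryonic midline, cells with at least 2000 UMIs were split by their UMIs of Shh, a comparison chosen after the data had been seen. In LSD1KO libraries 0 cells had 2 or more UMIs of Shh, which allows a share of up to 0.0615% and 0.122% of these cells, against 119 (3.21%) and 313 (4.89%) cells in WT libraries. Of these WT cells, 56 and 217 were ungated, the largest group in both libraries, and 45 and 67 were mixed. Together the 119 and 313 cells held 29.6% and 45.5% of all Slit2 UMIs, at 1747 and 1316 CPM. WT cells with no UMI of Shh were at 137 and 76.2 CPM. Cells with 1 UMI lay between, at 428 and 502 CPM. Both WT libraries showed the same order. Slit3 showed no such order and was at 232 and 168 CPM in the WT cells with at least 2 UMIs of Shh, against 292 and 177 CPM in those with none. Robo1 was at 121 and 86.7 CPM in them, against 217 and 203 CPM, and Nrp1 at 220 and 63.1 CPM, against 580 and 323 CPM. Ntn1, at 26.2 and 22.0 CPM against 6.50 and 10.2 CPM, followed Slit2 at a smaller scale. The same cells carried T at 307 and 276 CPM, Lmx1a at 110 and 99.5 CPM, Six3 at 146 and 143 CPM, Foxa2 at 125 and 125 CPM and Nog at 87.3 and 80.8 CPM, while Sox1 was at 0.452 and 1.63 CPM. They held markers of several lists and are given no cell type here. In cells with no UMI of Shh, Slit2 was still lower in LSD1KO libraries, at 43.2 and 37.8 CPM, than in WT libraries, at 137 and 76.2 CPM, a difference that was not tested.

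**Figure D5:**
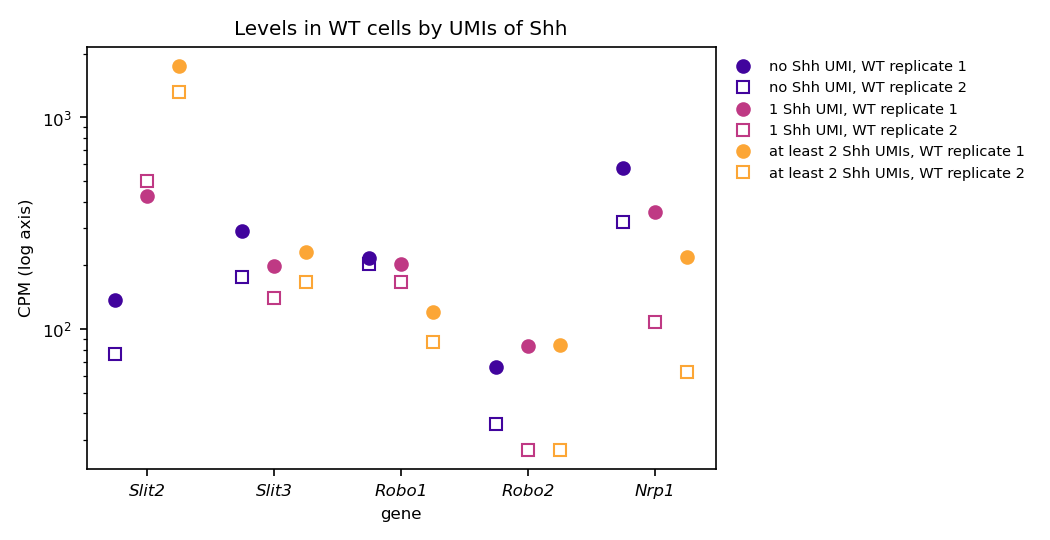
Levels (CPM, log axis) of 5 genes in WT cells with at least 2000 UMIs, split by no, 1 or at least 2 UMIs of Shh, with 1 point for each WT library. Slit2 climbs with the UMIs of Shh in both libraries, from 137 and 76.2 CPM without any to 1747 and 1316 CPM, and Slit3, Robo1, Robo2 and Nrp1 show no such climb.

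The shares of cells with a UMI were read after equalising depth. With every cell thinned to 3000 UMIs and gated again, 88.7% and 82.8% of the heart gate cells of WT replicates 1 and 2 had a UMI of Nrp1 and 74.1% and 68.0% had one of Unc5c. The endoderm gate, which served as a background for Unc5c, had 1.72% and 0.813%. Before thinning the shares of Unc5c were 90.4% and 78.7% in the heart gate, at medians of 13848 and 9024 UMIs per cell, and 10.9% and 1.63% in the endoderm gate, at medians of 20303 and 10765. Over all thinned cells, 1.82% and 1.46% of LSD1KO cells had a UMI of Nrp1, against 53.4% and 36.1% of WT cells. For Unc5c these shares were 4.20% and 2.49% in LSD1KO libraries, against 24.7% and 14.6% in WT libraries. Slit3 was read in 42.5% and 36.4% of LSD1KO cells, against 35.7% and 29.1% of WT cells, and no order is read from these shares, since its CPM overlapped between genotypes.

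Ligands and their receptors could also be read in the same cells. Among thinned cells of the WT heart gate (733 and 926 cells, gated before thinning), 94.5% and 89.2% of those with a UMI of Plxna4 also had one of Nrp1, against 88.6% and 79.6% of those without. In the other direction, 23.5% and 13.2% of the cells with Nrp1 had a UMI of Plxna4, against 12.2% and 6.74% of those without, so both were read together in a minority of the cells with Nrp1. In the same gate, 30.3% and 37.8% of cells with a UMI of Slit2 had one of Robo2, against 21.9% and 21.9% of the rest, and 27.5% and 30.2% of cells with Slit3 had one of Robo2, against 19.0% and 14.8% of the rest. For Slit2 and Robo1 the shares lay closer, at 28.3% and 30.2% of cells with Slit2, against 28.2% and 27.2% of the rest. Over all WT cells Ntn1 and its receptor Unc5c were seldom read in the same cell: 5.16% and 2.59% of cells with a UMI of Ntn1 had one of Unc5c, against 23.9% and 14.8% of the rest. These are counts over cells of 1 library each, which are not replicates, and free RNA and cell size were not taken out.

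On mm9, in GENCODE M1, the ligand genes lie with Slit2 (ENSMUSG00000031558.8) at chr5:48374394-48697521 (plus strand), Slit3 (ENSMUSG00000056427.4) at chr11:34934726-35522009 (plus strand), Ntn1 (ENSMUSG00000020902.6) at chr11:68022866-68214325 (minus strand) and Sema3a (ENSMUSG00000028883.10) at chr5:13125593-13602565 (plus strand). The Slit receptors share a chromosome, Robo1 (ENSMUSG00000022883.9) at chr16:72663394-73046340 (plus strand) and Robo2 (ENSMUSG00000052516.11) at chr16:73892551-74412070 (minus strand). The netrin receptors are Dcc (ENSMUSG00000060534.9) at chr18:71418392-72510723 (minus strand) and Unc5c (ENSMUSG00000059921.9) at chr3:141128528-141497888 (plus strand), and the semaphorin receptors are Nrp1 (ENSMUSG00000025810.8) at chr8:130882973-131029362 (plus strand) and Plxna4 (ENSMUSG00000029765.9) at chr6:32094565-32538192 (minus strand). A UMI count covers the whole gene, exons and introns together.

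A pair of features of the counts bear on all of these values. The first is that barcodes under 2000 UMIs carried higher levels of most of these genes. Slit3 was at 953 and 629 CPM in shallow LSD1KO cells and at 256 and 192 CPM in deeper ones, and at 837 and 384 CPM in shallow WT cells and at 287 and 175 CPM in deeper ones. All 10 genes span more than 100 kb on mm9, from 146 kb for Nrp1 on chromosome 8 to 1092 kb for Dcc on chromosome 18, and other genes over 100 kb took 24.3% and 20.02% of UMIs in shallow LSD1KO cells, against 9.99% and 9.73% in deeper ones. In WT libraries these shares were 20.4% and 19.0%, against 11.4% and 9.71%. Shallow cells held 5.56% or less of the UMIs of every gene and library but Plxna4 in LSD1KO replicate 2 (18.4%, 7 UMIs). The second is free RNA: in barcodes with under 100 UMIs, Nrp1 was at 7.80 and 4.29 CPM in LSD1KO libraries, against 487 and 230.0 CPM in WT libraries. Summed over all cells on the same plain scale it was at 7.16 and 4.95 CPM in LSD1KO libraries, against 562 and 306 CPM in WT libraries. The part of free RNA in the low levels of Nrp1 in WT gates was not tested.

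The wider guidance family split between both directions. Of 42 other guidance genes, listed by family and role, all were tested in whole EBs, and 11 were lower, 8 higher and 23 not called in edgeR's quasi-likelihood test. These shares of 26.2% and 19.0% lie near the 21.6% and 22.6% of all genes, and the median log2 fold change was −0.24. The ligands split 5 lower to 3 higher out of 14, the receptors 3 to 4 out of 18, and the effectors inside the cell 3 to 1 out of 10. The largest change at 10 CPM or more was that of Flrt3, a membrane ligand of Unc5 receptors. It averaged 5.94 ± 0.66 CPM in LSD1KO libraries and 36.5 ± 7.45 CPM in WT libraries, with a log2 fold change of −2.62 (edgeR adjusted p = 0.00075). Rgma, a ligand of the Dcc relative neogenin, fell by 1.91 on the log2 scale (edgeR adjusted p = 0.0023) to 5.04 ± 0.55 CPM in LSD1KO libraries, against 18.9 ± 4.85 CPM in WT libraries. Slit1 fell by 1.46 (edgeR adjusted p = 0.026) to 3.79 ± 1.62 CPM in LSD1KO libraries, against 10.4 ± 3.54 CPM in WT libraries, a call lost without WT replicate 2 (0.095). Plxna2 fell by 1.65 (edgeR adjusted p = 0.0467), a call lost in DESeq2 (0.0713), with library totals (0.0696), and without WT replicate 1 (0.129) or WT replicate 2 (0.0967). Sema3e and Sema3c, both secreted semaphorins, rose. Sema3e, the ligand of the vascular plexin Plxnd1, was at 124 and 157 CPM in LSD1KO libraries, against 37.8 and 36.1 CPM in WT libraries, with a log2 fold change of 1.93 (standard error 0.13, edgeR adjusted p = 0.00073). Sema3c rose by 1.05 on the log2 scale (edgeR adjusted p = 0.0042), with 12.9 and 14.7 CPM in LSD1KO libraries, against 7.07 and 6.29 CPM in WT libraries.

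Over the 21 sums of a gate in a library with at least 30 cells, the genes whose log2(CPM + 1) ran most like each member among 8847 genes were, as a description, Furin and Tbx20 for Nrp1 (Pearson r = 0.94 and 0.93), Rbms3 and Adamts9 for Unc5c (0.89 and 0.89), and Tnni1 and Hoxb3os for Plxna4 (0.88 and 0.88). Tbx20 is a transcription factor of the list behind the heart gate, and Tnni1 is the slow troponin I. For the Slit and Robo genes they were Vav2 and Tenm4 for Slit2 (0.82 and 0.80), Slc8a1 and Rbm20, both of heart muscle, for Slit3 (0.91 and 0.91), Tspan7 and Foxp4 for Robo1 (0.91 and 0.89), and Frs2 and Efnb1 for Robo2 (0.86 and 0.82). They were Lrig1 and Tti1 for Ntn1 (0.87 and 0.82), Lsamp and Romo1 for Sema3a (0.85 and 0.82), and E130308A19Rik and Plagl1 for Dcc (0.78 and 0.77). Among the members themselves, Unc5c and Plxna4 ran closest together (r = 0.85), followed by Slit2 and Slit3 (0.76), while Ntn1 ran against Nrp1 (−0.48) and Unc5c (−0.38). Sums of 1 library share its depth and free RNA.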

How the data were processed

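The authors dissociated day 6 EBs, made 10x 3′ v3.1 libraries, ran Cell Ranger 7.1.0 with its defaults (mm9 in the submitters' notes) and used Seurat 4.3.0 downstream. What they deposited are unnormalized UMI counts for each gene in every barcode, empty droplets included. Cell Ranger 7 counts intronic reads by default. Genes had to be seen in 10 or more cells. UMIs were summed per library, or per gate and library, and filtered with filterByExpr. They were tested with edgeR 4.0.16 (quasi-likelihood, TMM, Benjamini-Hochberg over all genes) in R 4.3.3, with 2 libraries per genotype. This step was tested on simulated data with the same spread for all genes. Of 2-fold changes, it called 26 of 99 in whole EBs and 18 of 98 in the pluripotent gate. Of 4-fold changes, it called 97 of 100 and 74 of 95. Among unchanged genes it called 0 of 16556 and 3 of 13227. A gene that was not called is therefore not shown to be unchanged. The pluripotent gate was tested because it alone had at least 30 cells in all 4 libraries. Replicates differed beyond sampling noise, with a chi-square of 29.3 for LSD1KO and 66.9 for WT per degree of freedom. Scrublet (scanpy 1.11.5) called 1 cell in all libraries, so it had not worked and no doublets were removed. Alternatives used DESeq2 1.42.0, library totals, no count filter, stricter cells or gates, thinning, doublet scores, each library left out, or a replicate block. Gene positions came from GENCODE M1 and promoters from RefSeq. Named beside the members are up to 6 other guidance genes with the largest called change at 10 CPM or more, the 2 genes most alike to each member, gate markers and Kdm1a. Genes named in the Shh comparison and gate leaders outside the lists were chosen after their values were seen. The members, lists and tests were chosen with earlier results of these data known. Intervals and limits cover counting error only.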

Additional observations from a re-analysis of the deposited data

How the results depend on the processing

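The 6 falls in whole EBs (Nrp1, Plxna4, Unc5c, Robo2, Slit2 and Robo1) kept their direction and call in all 10 alternatives. Among the 6 WT gates compared, 6 of the 10 genes led in the heart gate under each gate setting checked. These were at least 4 markers, thinning and the highest doublet scores left out, while gates at 2 markers were not checked for this. Only the number of genes was compared, not which genes they were. After thinning, the pluripotent and paraxial gates of WT replicate 1 held 16 and 23 cells, so their levels came from WT replicate 2 alone. Leaving out each library in turn gave 6 to 8 called members in whole EBs and 1 to 5 in the pluripotent gate. For all genes it gave 2704 to 3415 called higher and 2295 to 3251 lower in whole EBs, beside 3839 and 3661 with all libraries, and 461 to 1468 higher and 380 to 1423 lower in the pluripotent gate, beside 1602 and 1437. DESeq2 called 2 members in the pluripotent gate, with 773 genes higher and 657 lower. Scaling to library totals shifted the median log2 fold change over all genes by 0.13 and the split in whole EBs to 4839 higher and 2583 lower. In whole EBs the log2 fold change ran from −0.44 to 0.22 for Slit3 and from −0.96 to 0.27 for Ntn1 without 1 library, and in the pluripotent gate from −0.29 to 0.31 for Slit3, −0.40 to 0.038 for Robo1, −1.39 to 0.38 for Robo2 and −2.25 to 0.69 for Unc5c. Without the highest doublet scores, an alternative added after seeing the data, Robo2 (1.31) and Unc5c (1.32) turned sign in that gate. The cause was not tested. The replicate numbers share only a number: the deviations of same-numbered libraries correlated at 0.16 over 16953 genes, with 2 pairs. A replicate block called 7 members in whole EBs (4118 genes higher, 3979 lower) and 4 in the pluripotent gate (1928 and 1630), where Slit3 moved to −0.0014, and changed no call of a member. No second gate had 30 cells in every library, so the difference between gates was not tested, and the pluripotent gate was not tested after thinning, which left 16 cells of WT replicate 1.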
